A study of Mus musculus with 6 samples.

Results

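Collagen chains and the proteins that fold, modify and cross-link them were followed in tumours grown from UV2237M. This mouse cell line comes from a fibrosarcoma, a cancer of connective tissue cells. The genes were chosen by symbol. They are the 44 symbols of the form Col, a number, a and a number, and 16 enzymes and partners (the P4ha, Plod and Lox families, Serpinh1, Pcolce, Pcolce2, Sparc and Fn1), together 60 of the 23183 symbols counted. RNA was sequenced from 3 tumours that received gold nanoclusters (GNC), very small gold particles, on day 1 and day 7 with near-infrared irradiation, called treated 1 to 3, and from 3 tumours left without treatment, called untreated 1 to 3. Per the labels all 6 were wild-type tumours of this line. The host animals, their age and whether each tumour came from its own animal are not stated, so p-values measure the spread between these samples. The labels describe no group with light alone or with GNC alone, so an effect of either cannot be told apart from that of both. The comparison asks how the tumour's RNA differed after GNC with irradiation.

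Collagens are secreted proteins of 3 chains wound into a helix. The helix can form only where every glycine of a Gly-X-Y repeat is in place, because no larger residue fits at its centre. Fibrillar collagens make the ropes of connective tissue. Type IV forms the sheets of basement membranes, type VI makes beaded filaments around cells, and fibril-associated chains decorate the ropes. In the endoplasmic reticulum prolyl and lysyl hydroxylases modify the chains and the chaperone Hsp47 (Serpinh1) binds the folded helix. Outside the cell the ends are cut off and lysyl oxidases cross-link the fibrils. A fibrosarcoma can make collagen itself, and host fibroblasts, vessels and skin add theirs. In bulk RNA, fewer cells of a type and less RNA per cell cannot be told apart.

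The coding sequences of the helix are shown first, because the chains differ in GC content and the libraries differed along it. Each stretch below opens the longest unbroken run of Gly-X-Y codons of its chain, read 5′ to 3′ from the GENCODE M21 transcript, 81 bases or 9 repeats long. Capitals mark the glycine codon that opens each repeat, which begins with GG. Glycine codons at the X or Y place, as in Col3a1, Col5a1 and Col5a2, are in lower case.
Col1a1: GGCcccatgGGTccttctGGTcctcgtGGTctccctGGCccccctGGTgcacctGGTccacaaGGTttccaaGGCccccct
Col1a2: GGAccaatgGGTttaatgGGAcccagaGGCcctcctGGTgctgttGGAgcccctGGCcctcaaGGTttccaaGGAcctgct
Col3a1: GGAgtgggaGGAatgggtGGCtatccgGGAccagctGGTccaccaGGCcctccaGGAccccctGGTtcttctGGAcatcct
Col5a1: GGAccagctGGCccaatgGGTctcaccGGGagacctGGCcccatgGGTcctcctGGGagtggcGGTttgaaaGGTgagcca
Col5a2: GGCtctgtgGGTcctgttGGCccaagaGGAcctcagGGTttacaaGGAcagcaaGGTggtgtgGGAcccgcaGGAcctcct
The whole runs hold 338 repeats in *Col1a1*, 339 in *Col1a2*, 344 in *Col3a1*, 338 in *Col5a1* and 339 in *Col5a2*. Their GC content was 65.2%, 62.0%, 60.9%, 65.4% and 60.0% in the same order. The opening glycine is written GGT in 55.9% of the *Col1a1* repeats and 51.6% of those of *Col1a2*, but in 28.1% of those of *Col5a1*.

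The libraries held between 4680295 and 8019294 counts. Untreated 2 stood apart. Its mean distance to the others in log2 CPM (CPM being counts scaled to a common library size with TMM factors) was 1.22, against 0.611 to 0.729 for the rest. All 10 markers of fibroblasts and mesenchymal cells were found in each library, with a summed level of 6038 to 6547 CPM in treated and 5971 to 7351 CPM in untreated tumours. Keratinocyte markers, a sign of skin, summed to 4.34 to 67.6 CPM in treated tumours, against 1260, 677 and 5.88 CPM in untreated 1, 2 and 3. Macrophage markers summed to 625.6 to 1247 CPM in treated and 1118 to 2418 CPM in untreated tumours.

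Of the 60 genes 44 passed the filter on low counts and were tested. For none of them did the difference between the groups pass edgeR's quasi-likelihood test. The smallest Benjamini-Hochberg adjusted p, over all 12517 tested genes, was 0.592, and 0 genes (0%) were called in either direction. At an unadjusted p under 0.05, 8 of the 44 lay higher and 4 lower in treated tumours, against 3.32% and 4.85% of all tested genes. The 8 were *Col24a1*, *Col5a3*, *Col6a3*, *Lox*, *Loxl2*, *P4ha2*, *P4ha3* and *Pcolce2*, and the 4 were *Col17a1*, *Col5a2*, *Col8a1* and *Plod2*. DESeq2 called 1 of them, *Col24a1* (adjusted p 0.00953), among 0.136% of genes called higher and 0.232% called lower. *Col24a1* reached the level of the low-count filter only in treated tumours. It was thus tested only through the group where it was high, and its calls are no separate support for a difference. Without untreated 2 edgeR again called none, with 9 members higher and 7 lower at an unadjusted p under 0.05, against 9.55% and 8.85% of the 12836 genes then tested. DESeq2 then called *Col24a1* and *Col5a3* higher (adjusted p 0.0166 and 0.00507) and *Col8a1*, *Loxl1* and *Plod1* lower (0.0121, 0.0307 and 0.0199), against 0.81% and 1.19% of all genes.

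**Figure D1:**
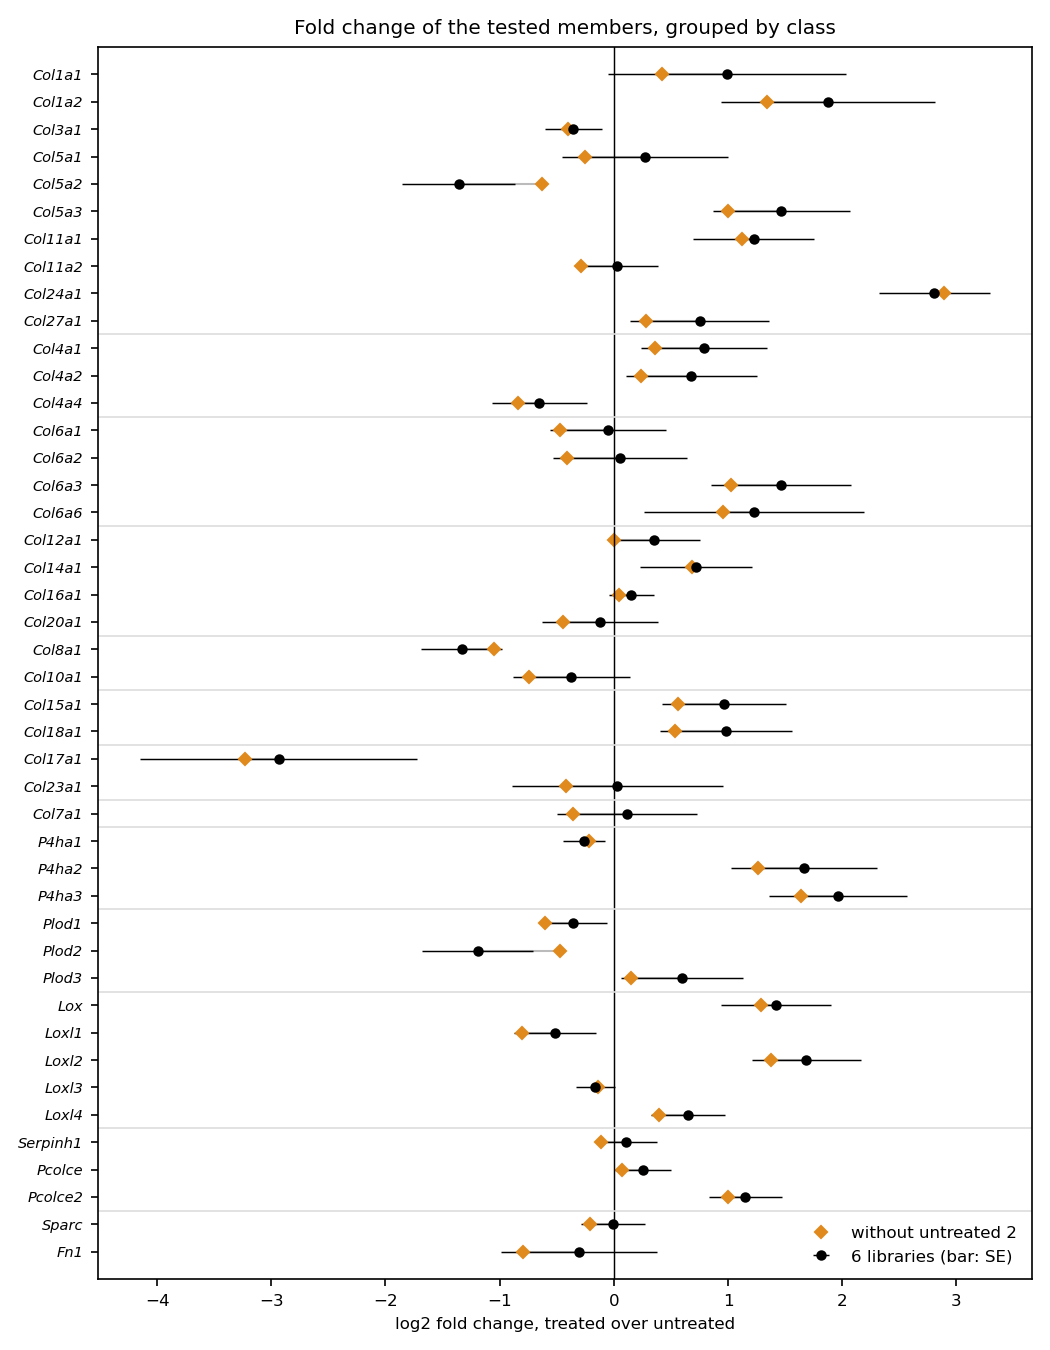
Log2 fold change, treated over untreated, of the 44 tested collagen genes and partners on the x axis, grouped by class from fibrillar chains at the top to matrix partners at the bottom. Black circles are edgeR's fit to 6 libraries with their standard error, and orange diamonds the fit without untreated 2, which moved *Col5a2* from -1.36 to -0.63 and placed *Col5a1* at -0.25 in place of 0.27.

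The fibrillar chains carried most of the collagen RNA. *Col3a1* codes for the single chain of type III collagen, found with type I in soft tissue (chromosome 1, 45311538 to 45349706, GRCm38, protein-coding). It had 15632, 18620 and 12537 CPM in treated 1, 2 and 3, against 22364, 18713 and 18717 CPM in untreated 1, 2 and 3. Each treated value lay below each untreated one, by a small margin for treated 2, and the log2 fold change was -0.35 ± 0.25 (SE). Per kilobase of transcript *Col3a1* averaged 3193 CPM over the 6 libraries, against 576.8 for *Fn1*, 561.4 for *Sparc*, 410.2 for *Col5a2* and 399.9 for *Col1a1*, the next in order. All 44 chains together took 2.67%, 3.40% and 2.77% of the counts in treated tumours, against 3.66%, 2.72% and 3.30% in untreated ones. These shares overlapped (exact permutation test, 2-sided, p = 0.6, where 0.1 is the smallest that 3 against 3 libraries allow). *Col3a1* made up 57.5%, 55.3% and 46.1% of the chain counts in treated tumours, against 61.7%, 66.0% and 57.8% in untreated ones, where treated 1 lay just under untreated 3 (exact permutation p = 0.1). This test of the *Col3a1* share was not among the planned ones, and its p was not adjusted.

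Type I collagen, the main protein of scar and bone, is built of *Col1a1* and *Col1a2* chains. *Col1a1* (chromosome 11, 94936224 to 94953042) had 1972, 3261 and 4244 CPM in treated 1, 2 and 3, against 2201, 59.2 and 2490 CPM in untreated 1, 2 and 3. *Col1a2* had 642.2, 1706 and 2234 CPM in treated 1, 2 and 3, against 324.8, 47.9 and 872.6 CPM in untreated 1, 2 and 3. In both genes untreated 2 lay far below every other library, treated 2 and treated 3 were the highest, and treated 1 was not above both untreated 1 and untreated 3. The log2 fold changes were 1.00 ± 1.04 and 1.88 ± 0.94 with 6 libraries and 0.42 ± 0.29 and 1.34 ± 0.56 without untreated 2. *Col3a1* outnumbered *Col1a1* by 7.93, 5.71 and 2.95 to 1 in counts in treated tumours, against 10.2, 315.4 and 7.52 to 1 in untreated ones, a ratio looked at after its values were seen.

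Type V collagen sits inside type I fibrils and sets their width. Its *Col5a1* chain had 2070, 2360 and 2035 CPM in treated 1, 2 and 3, against 2578, 244.7 and 2525 CPM in untreated 1, 2 and 3. Its *Col5a2* chain had 1686, 1827 and 1060 CPM in treated 1, 2 and 3, against 2509, 7043 and 2179 CPM in untreated 1, 2 and 3. The partners thus parted in untreated 2, where *Col5a1* was the lowest of the 6 libraries and *Col5a2* the highest. *Col5a2* did not overlap between the groups, and the log2 fold change was -1.36 ± 0.50 over 6 libraries and -0.63 ± 0.23 without untreated 2. *Col5a3*, a minor type V chain (chromosome 9, 20770050 to 20815067), had 296.2, 262.3 and 241.6 CPM in treated 1, 2 and 3, against 93.6, 24.5 and 170.5 CPM in untreated 1, 2 and 3. The treated tumours lay close together and above each untreated one, and the fitted log2 fold change of 1.47 ± 0.60 became 1.00 ± 0.24 without untreated 2.

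*Col24a1*, a fibrillar chain known from developing bone and eye (chromosome 3, 145292472 to 145552011), had 2.86, 4.62 and 4.71 CPM in treated 1, 2 and 3, against 0.301, 0.668 and 0.735 CPM in untreated 1, 2 and 3. The groups did not overlap, but the values rest on 16, 34 and 38 counts in treated tumours and on 2, 3 and 6 counts in untreated ones. The untreated counts lay below the filter's smallest count of 10, so the gene was tested only through the treated tumours. Its log2 fold change was 2.81 ± 0.48 and 2.89 ± 0.56 without untreated 2. Every untreated library was near 0, so leaving out untreated 2 could move this value little. *Col11a1*, a chain of cartilage fibrils also seen in activated fibroblasts, had 1.79, 3.53 and 6.20 CPM in treated tumours, against 2.11, 1.34 and 1.47 CPM in untreated ones, and the groups overlapped. *Col11a2* and *Col27a1*, also known from cartilage, overlapped as well, with 20.2 to 27.3 and 26.1 to 35.2 CPM in treated tumours against 11.8 to 30.9 and 3.56 to 28.4 CPM in untreated ones. *Col2a1*, the main cartilage chain, had 2 to 8 counts a library in treated and 0 to 6 in untreated tumours and was not tested. Over the 10 tested fibrillar chains 8 had a log2 fold change above 0 and the median was 0.87, or 6 chains and 0.35 without untreated 2. The median of all tested genes was -0.00 in both fits.

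**Figure D2:**
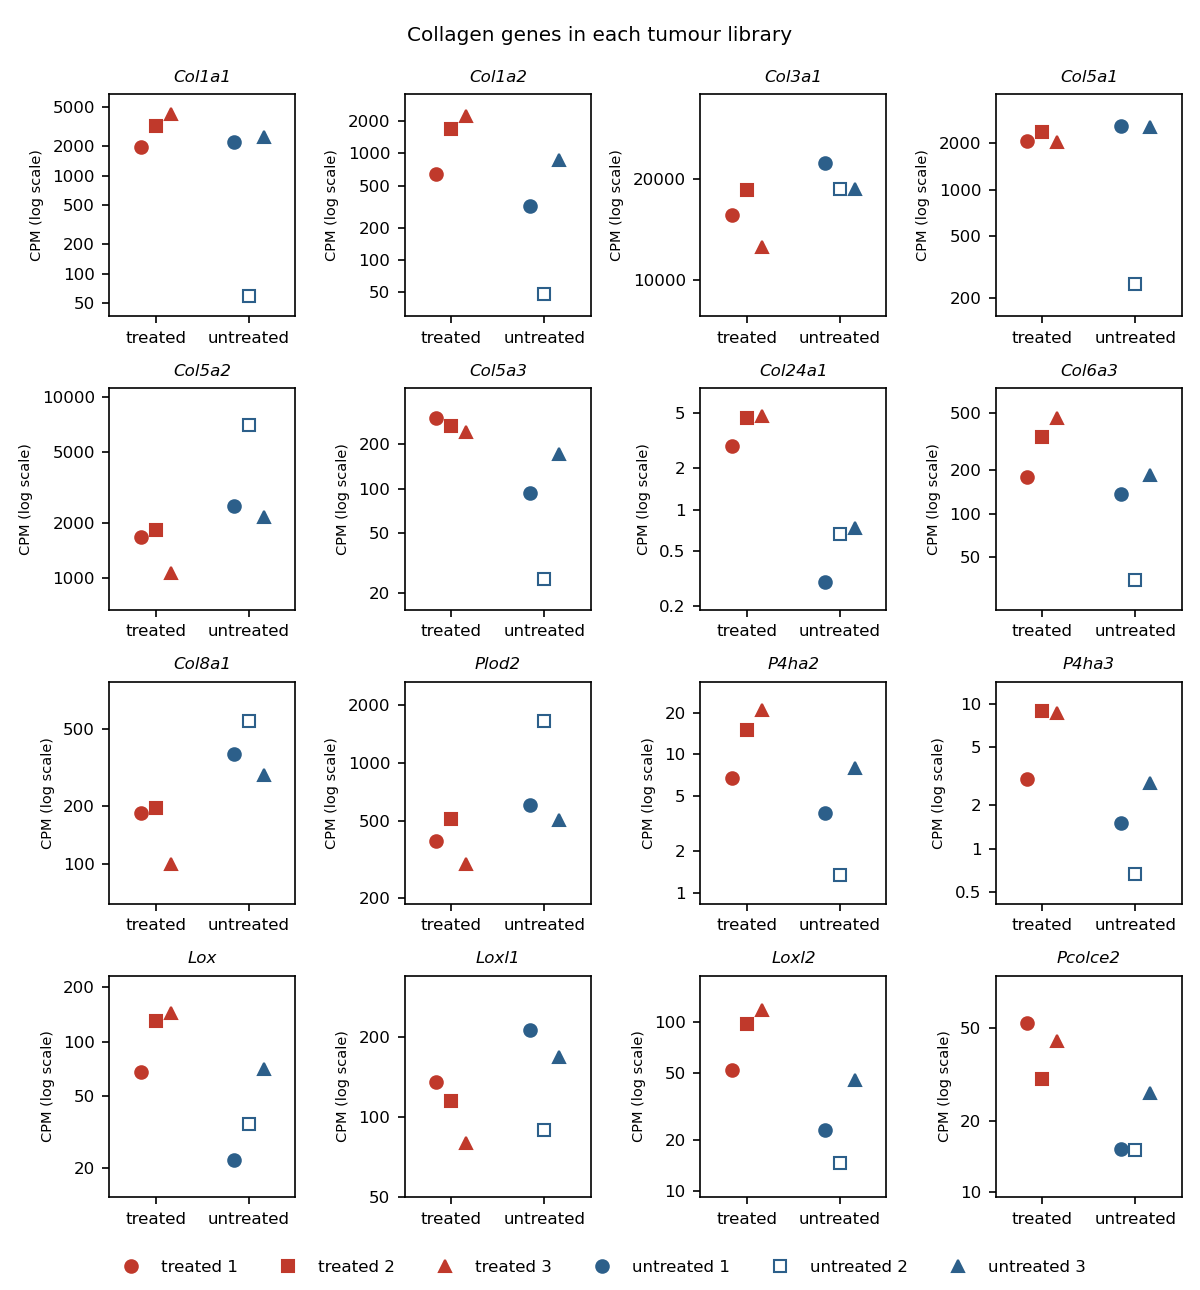
CPM on a log scale in each library for 16 collagen genes, with treated tumours in red on the left and untreated ones in blue on the right. Untreated 2 is the open square, far below the others in *Col1a1*, *Col1a2* and *Col5a1* and above them in *Col5a2*, *Col8a1* and *Plod2*.

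Of the 4 chains whose groups did not overlap and whose unadjusted p was under 0.05, *Col5a2* is named only, and the upstream sequences of the other 3 are given to show what these starts hold, as 250 bases before the annotated start, 5′ to 3′ on the gene's strand (RefSeq, GRCm38.p6). Capitals mark matches to any of 6 motifs searched on both strands, the AP-1 site TGANTCA, the core of the cAMP response element TGACGT, the TEAD site GGAATG, the CCAAT box, the GC box GGGCGG and the TATA box TATAAA. Adjoining matches run together.
Col24a1, chr3:145292222-145292471, plus strand: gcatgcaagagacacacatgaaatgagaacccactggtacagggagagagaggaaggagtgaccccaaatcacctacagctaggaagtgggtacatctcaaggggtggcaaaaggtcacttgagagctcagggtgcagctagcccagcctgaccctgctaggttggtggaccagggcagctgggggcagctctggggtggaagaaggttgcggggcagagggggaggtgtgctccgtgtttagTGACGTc
Col5a3, chr9:20815068-20815317, minus strand: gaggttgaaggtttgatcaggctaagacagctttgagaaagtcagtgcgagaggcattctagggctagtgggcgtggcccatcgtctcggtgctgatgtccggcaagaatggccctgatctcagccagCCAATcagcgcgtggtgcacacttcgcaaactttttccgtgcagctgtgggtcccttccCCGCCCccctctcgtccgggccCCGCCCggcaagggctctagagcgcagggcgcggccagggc
Col8a1, chr16:57754738-57754987, minus strand: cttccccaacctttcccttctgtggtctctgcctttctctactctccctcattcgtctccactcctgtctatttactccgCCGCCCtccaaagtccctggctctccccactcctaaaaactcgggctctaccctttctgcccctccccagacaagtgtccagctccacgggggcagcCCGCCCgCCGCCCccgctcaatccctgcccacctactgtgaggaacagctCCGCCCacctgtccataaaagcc
*Col24a1* held a match to TGACGT close to its start and no other. *Col5a3* held 1 CCAAT box and 2 GC boxes, and *Col8a1*, described below, held 4 GC boxes. Of the 32851 RefSeq promoters 6.75% hold TGANTCA, 6.47% TGACGT, 12.6% GGAATG, 33.8% CCAAT, 32.7% GGGCGG and 12.4% TATAAA within the same window. These matches describe the letters alone. Promoter entries were found for 45 of the 60 genes.

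Untreated 2 was low in most collagen genes. Of the 44 tested, 31 had their lowest value there and 5 their highest, against 39.6% and 37.3% of all tested genes. The median gene of the 44 lay at -1.19 on the log2 scale in untreated 2 relative to the mean of untreated 1 and 3 (0.5 CPM added to each), and the median of all tested genes at -0.04. The transcripts of the 44 have a median GC content of 54.8%, against 49.7% for all tested genes. Across the 44 genes GC content and the deviation of untreated 2 had a Spearman correlation of -0.65, against -0.48 across 12440 tested genes. These are correlations across genes of the same 3 libraries, which are not independent of each other. Among fibrillar chains *Col5a2* (49.6% GC) lay at 1.59, *Col3a1* (52.5%) at -0.13, *Col1a2* (55.7%) at -3.63, *Col5a1* (58.0%) at -3.38 and *Col1a1* (58.9%) at -5.30. *Col11a2* (62.9%), the richest in GC, lay at -1.26, so the order by GC was not exact. With a correction of each library for GC content and length, 18 of the 44 were at an unadjusted p under 0.05, against 13.1% of all tested genes in that fit, and edgeR again called 0 of them.

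**Figure D3:**
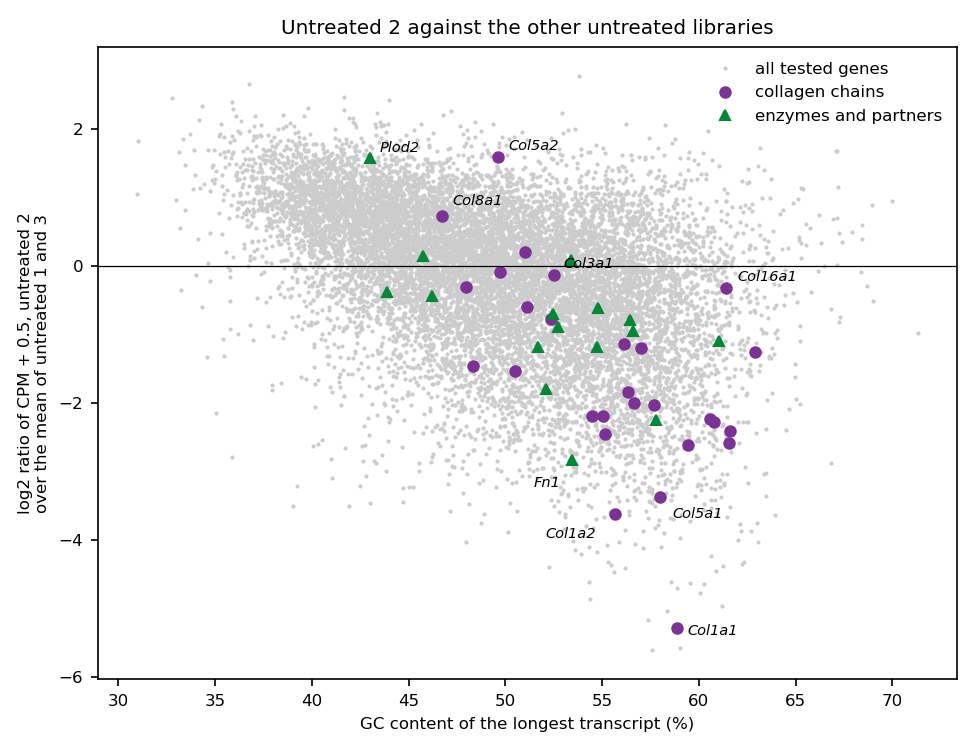
GC content of the longest transcript on the x axis and the log2 ratio of untreated 2 over the mean of untreated 1 and 3 on the y axis, for all tested genes (grey), tested collagen chains (purple circles) and enzymes and partners (green triangles). *Col1a1* lies lowest of the marked genes at -5.30 and *Col5a2* and *Plod2* lie highest.

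Basement membrane collagen was led by *Col4a1* and *Col4a2*, which join in the most common type IV molecule. *Col4a1* had 224.4, 266.8 and 352.3 CPM in treated 1, 2 and 3, against 152.1, 52.5 and 282.8 CPM in untreated 1, 2 and 3. *Col4a2* had 125.3, 177.1 and 208.8 CPM in treated 1, 2 and 3, against 107.6, 30.1 and 180.6 CPM in untreated 1, 2 and 3. Both were highest in treated 3 and lowest in untreated 2, and the groups overlapped. The genes lie head to head on chromosome 8, with annotated starts 21 bases apart on opposite strands in RefSeq. *Col4a4*, a chain of kidney, lung and inner ear membranes, had 3.04, 3.39 and 1.98 CPM in treated tumours, against 6.33, 3.12 and 3.67 CPM in untreated ones. *Col4a3*, *Col4a5* and *Col4a6* had at most 4 counts a library in treated and 7 in untreated tumours. *Col15a1* and *Col18a1*, multiplexins of vessel basement membranes, had 37.5, 61.8 and 73.5 CPM and 56.4, 73.6 and 96.8 CPM in treated tumours, against 26.4, 10.5 and 51.1 CPM and 39.9, 10.2 and 63.9 CPM in untreated ones. Endothelial markers summed to 130.0, 175.2 and 208.8 CPM in treated 1, 2 and 3, against 96.8, 90.2 and 164.6 CPM in untreated 1, 2 and 3, with 0 of 8 markers at 0 in any library. Pericyte and smooth muscle markers summed to 65.5, 107.3 and 177.9 CPM in treated 1, 2 and 3, against 95.2, 65.5 and 82.8 CPM in untreated 1, 2 and 3, again with none at 0. *Des* alone gave 5.53, 3.39 and 57.2 CPM of this in treated 1, 2 and 3, against 17.8, 10.9 and 4.53 CPM in untreated 1, 2 and 3. The part of vessel RNA in these values was not tested.

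Type VI collagen, the beaded filament that anchors cells in loose matrix, is built of *Col6a1*, *Col6a2* and one more, large chain, in most tissues *Col6a3*. *Col6a1* had 1220, 1234 and 877.2 CPM in treated 1, 2 and 3, against 1738, 380.9 and 1327 CPM in untreated 1, 2 and 3. *Col6a2* had 690.2, 667.2 and 528.8 CPM in treated 1, 2 and 3, against 978.2, 150.7 and 683.2 CPM in untreated 1, 2 and 3. *Col6a3* had 180.7, 341.3 and 460.6 CPM in treated 1, 2 and 3, against 136.4, 34.7 and 184.6 CPM in untreated 1, 2 and 3. Treated 3, lowest of the treated tumours in *Col6a1* and *Col6a2*, was the highest of all in *Col6a3*. The log2 fold change of *Col6a3* was 1.46 ± 0.61, or 1.02 ± 0.35 without untreated 2, and treated 1 lay just below untreated 3. Of the other type VI chains, *Col6a6* had 0.536 to 4.22 CPM in treated and 0.151 to 2.08 CPM in untreated tumours. *Col6a5* had 0, 22 and 23 counts in treated tumours, against 4, 0 and 2 counts in untreated ones. *Col6a4* had 3, 3 and 4 counts in treated tumours and no count in the untreated ones.

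Ratios of chains that share a molecule need no scaling between libraries. They remove library size only, and a shift of 1 library that differs between the chains stays in them. In untreated 2 *Col5a1* lay at -3.38 and *Col5a2* at 1.59 on the log2 scale, relative to the mean of untreated 1 and 3. Of the 6 pairs compared, *Col4a1*/*Col4a2* had 1.79, 1.51 and 1.69 to 1 in treated tumours, against 1.41, 1.75 and 1.57 to 1 in untreated ones. *Col1a1*/*Col1a2* was 3.07, 1.91 and 1.90 to 1 in treated tumours, against 6.78, 1.24 and 2.85 to 1 in untreated ones. *Col6a1*/*Col6a3* was 6.75, 3.62 and 1.90 to 1 in treated tumours, against 12.7, 10.9 and 7.19 to 1 in untreated ones. *Col6a1*/*Col6a3* was thus lower in each treated tumour than in each untreated one, a mean log2 difference of -1.48. *Col5a1*/*Col5a2* was 1.23, 1.29 and 1.92 to 1 in treated tumours, against 1.03, 0.0348 and 1.16 to 1 in untreated ones, a mean log2 difference of 2.07, or 0.41 without untreated 2. The exact permutation p of these 2 pairs was 0.1, the smallest possible, and 0.3 after Benjamini-Hochberg adjustment over the 6. *Col6a1*/*Col6a2* lay between 1.66 and 1.85 to 1 in treated tumours and between 1.78 and 2.53 to 1 in untreated ones. *Col8a1*/*Col8a2* rests on 1 to 8 counts of *Col8a2* in treated and 3 to 22 in untreated tumours and lay above 100 to 1 in every library.

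**Figure D4:**
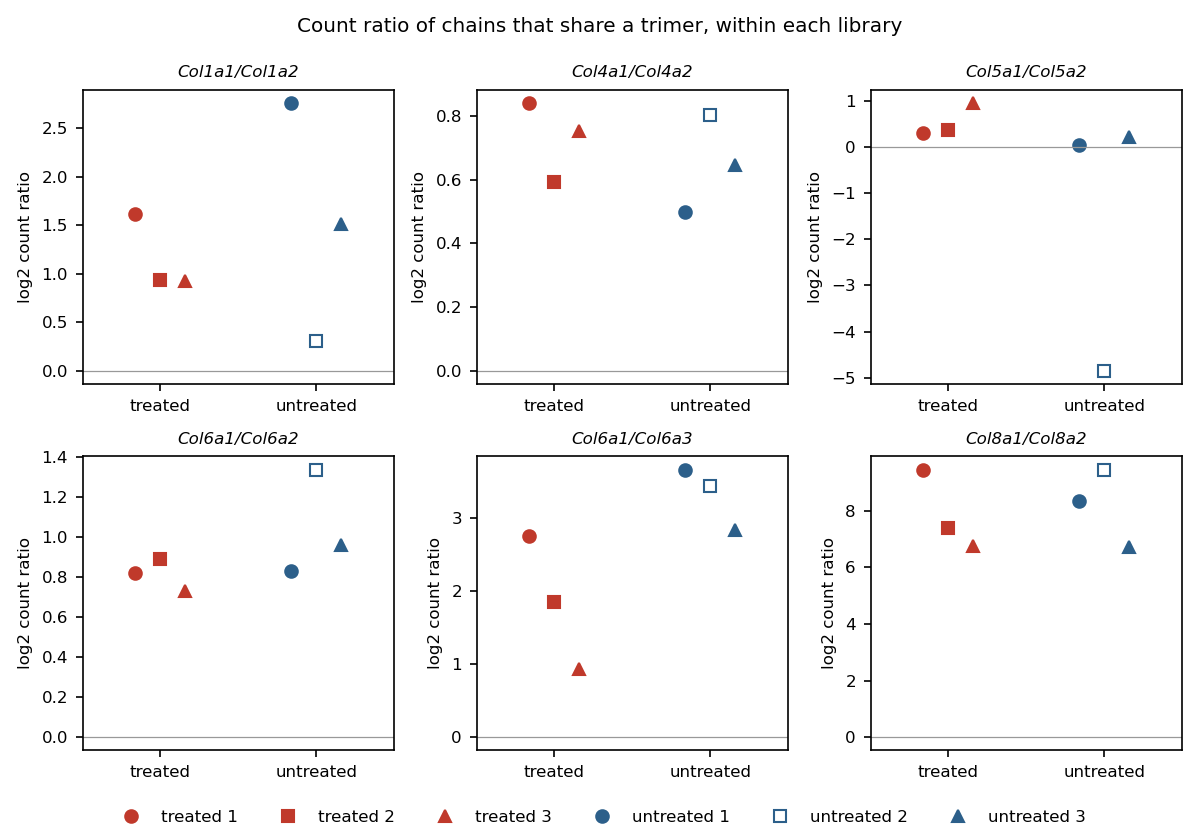
Log2 ratio of the counts of 6 pairs of chains that share a collagen molecule in each library, with treated tumours in red on the left and untreated ones in blue on the right, each panel with its own y axis. *Col6a1*/*Col6a3* is lower in all 3 treated tumours, and the open square of untreated 2 lies at -4.85 in *Col5a1*/*Col5a2*.

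The remaining chains with appreciable levels were *Col8a1*, *Col7a1*, *Col12a1* and *Col16a1*. *Col8a1*, a short chain that forms networks under endothelium and in remodelled vessel walls (chromosome 16, 57624258 to 57754737), had 185.1, 196.1 and 100.3 CPM in treated 1, 2 and 3, against 372.7, 549.0 and 289.2 CPM in untreated 1, 2 and 3. Every treated value lay below every untreated one, and the log2 fold change was -1.33 ± 0.35 over 6 libraries and -1.05 ± 0.27 without untreated 2. *Col10a1*, the network collagen of growth cartilage, had 3.04 to 3.67 CPM in treated and 1.56 to 6.78 CPM in untreated tumours. *Col12a1* and *Col16a1*, which link fibrils to their surroundings, had 584.0 to 815.3 CPM and 648.9 to 710.6 CPM in treated tumours, against 255.6 to 720.1 CPM and 529.4 to 683.6 CPM in untreated ones. *Col14a1*, another fibril-associated chain, had 15.9, 57.3 and 53.4 CPM in treated tumours, against 18.2, 24.5 and 34.2 CPM in untreated ones. *Col20a1* stayed at 1.24 to 1.77 CPM in treated and 0.668 to 2.20 CPM in untreated tumours. *Col9a1*, a cartilage chain, had no count in any library. *Col9a2*, its partner, had 0, 1 and 1 counts in treated tumours, against 7, 3 and 12 counts in untreated ones. *Col9a3*, *Col19a1* and *Col22a1* had at most 5 counts in any library.

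*Col17a1* and *Col7a1* are chains of the junction between epidermis and dermis. *Col17a1*, a transmembrane collagen of the hemidesmosomes that hold basal keratinocytes (chromosome 19, 47646344 to 47692094), had 2.50, 1.36 and 3.60 CPM in treated 1, 2 and 3, against 46.7, 10.02 and 0.735 CPM in untreated 1, 2 and 3. Untreated 1 and 2 were high and untreated 3 lay below all treated tumours, with a log2 fold change of -2.93 ± 1.21. The keratin *Krt5* of basal keratinocytes had 4.46, 0 and 18.8 CPM in treated tumours, against 237.4, 77.0 and 0 CPM in untreated ones, so *Col17a1* was high in the libraries rich in keratin. Of the 8 keratinocyte markers 2, 5 and 0 were at 0 in treated 1, 2 and 3, against 0, 0 and 6 in untreated 1, 2 and 3. The part of skin in this value was not tested. *Col7a1*, which forms the anchoring fibrils below the epidermis and can be made by fibroblasts too, had 787.9, 951.5 and 609.2 CPM in treated 1, 2 and 3, against 1147, 166.3 and 852.9 CPM in untreated 1, 2 and 3. *Col7a1* was lowest in untreated 2, and the part of skin in its values was not tested either. *Col23a1*, another transmembrane chain, had 1.90 to 4.46 CPM in treated and 0.445 to 6.78 CPM in untreated tumours. *Col13a1*, *Col25a1*, *Col26a1* and *Col28a1* had at most 14 counts in a treated and 9 in an untreated library.

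Prolyl 4-hydroxylases make the hydroxyproline that keeps the helix stable at body temperature, and their alpha subunits come from the P4ha genes. *P4ha1*, the main one, had 225.8, 235.0 and 212.0 CPM in treated 1, 2 and 3, against 274.3, 286.1 and 244.0 CPM in untreated 1, 2 and 3. *P4ha2* had 6.78, 15.1 and 20.8 CPM in treated 1, 2 and 3, against 3.77, 1.34 and 7.96 CPM in untreated 1, 2 and 3. *P4ha3* had 3.04, 8.83 and 8.56 CPM in treated 1, 2 and 3, against 1.51, 0.668 and 2.82 CPM in untreated 1, 2 and 3. *P4ha1* lay lower and *P4ha3* higher in each treated tumour, and *P4ha2* overlapped through treated 1. The *P4ha3* values rest on 17, 65 and 69 counts in treated tumours and on 10, 3 and 23 counts in untreated ones. *P4ha2* had 6 counts in untreated 2. Both were under the level of the low-count filter in untreated 2, so they passed it only with the treated tumours. The log2 fold change was -0.26 ± 0.18 for *P4ha1*, or -0.22 ± 0.11 without untreated 2. It was 1.66 ± 0.64 for *P4ha2*, or 1.27 ± 0.50 without untreated 2, and 1.97 ± 0.61 for *P4ha3*, or 1.64 ± 0.54.

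Lysyl hydroxylases prepare lysines for sugar attachment and cross-linking. *Plod2*, which modifies the ends of the chains and favours stable cross-links, had 395.1, 510.9 and 299.3 CPM in treated 1, 2 and 3, against 603.1, 1643 and 507.3 CPM in untreated 1, 2 and 3. *Plod1*, which acts within the helix, had 221.7, 277.4 and 222.1 CPM in treated 1, 2 and 3, against 392.1, 195.2 and 333.0 CPM in untreated 1, 2 and 3. *Plod3*, which also attaches sugars, had 105.7, 113.8 and 118.2 CPM in treated 1, 2 and 3, against 100.8, 20.7 and 100.9 CPM in untreated 1, 2 and 3. The 3 enzymes differed in how untreated 2 stood, highest in *Plod2* and lowest in the others. The log2 fold changes of *Plod2* and *Plod1* were -1.19 ± 0.48 and -0.35 ± 0.29, and -0.47 ± 0.21 and -0.60 ± 0.14 without untreated 2. The groups did not overlap in *Plod3*, whose log2 fold change was 0.60 ± 0.53, or 0.15 ± 0.10 without untreated 2.

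Lysyl oxidases start the cross-links between collagen or elastin molecules, and the family lay in both directions. *Lox* had 67.8, 130.5 and 144.7 CPM in treated 1, 2 and 3, against 22.0, 35.2 and 70.4 CPM in untreated 1, 2 and 3. *Loxl2*, linked to type IV collagen and invasive tumours, had 52.5, 97.4 and 118.3 CPM in treated 1, 2 and 3, against 22.9, 14.7 and 45.3 CPM in untreated 1, 2 and 3. *Loxl1*, which cross-links elastin, had 135.2, 114.9 and 79.7 CPM in treated 1, 2 and 3, against 213.1, 89.1 and 168.8 CPM in untreated 1, 2 and 3. *Loxl2* did not overlap, *Lox* overlapped only through treated 1 and untreated 3, and *Loxl1* lay lower in all treated tumours than in untreated 1 and 3, with untreated 2 between treated 2 and treated 3. The log2 fold changes were 1.42 ± 0.48 for *Lox*, 1.69 ± 0.48 for *Loxl2* and -0.52 ± 0.36 for *Loxl1*, and 1.29 ± 0.48, 1.38 ± 0.38 and -0.81 ± 0.21 without untreated 2. *Loxl3* had 73.9 to 79.6 CPM in treated and 81.6 to 88.6 CPM in untreated tumours, without overlap but with a log2 fold change of -0.16 ± 0.17. *Loxl4* had 27.9 to 43.9 CPM in treated and 13.4 to 28.2 CPM in untreated tumours.

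Of the chaperone and the secreted helpers, *Pcolce2* alone was at an unadjusted p under 0.05. *Serpinh1* had 789.8, 940.9 and 806.9 CPM in treated 1, 2 and 3, against 951.1, 526.1 and 871.9 CPM in untreated 1, 2 and 3. *Pcolce*, which speeds the removal of the carboxy-terminal propeptide, had 300.5, 355.7 and 348.3 CPM in treated 1, 2 and 3, against 292.1, 205.9 and 341.9 CPM in untreated 1, 2 and 3. *Pcolce2*, its relative (chromosome 9, 95637601 to 95698096), had 52.5, 30.3 and 43.9 CPM in treated 1, 2 and 3, against 15.2, 15.1 and 26.3 CPM in untreated 1, 2 and 3. *Pcolce2* stood higher in every treated tumour, and the log2 fold change was 1.15 ± 0.32 over 6 libraries and 1.00 ± 0.29 without untreated 2. *Sparc*, a collagen-binding matricellular protein, had 1027, 1496 and 1345 CPM in treated 1, 2 and 3, against 1552, 913.5 and 1415 CPM in untreated 1, 2 and 3. *Fn1*, fibronectin, on which collagen fibrils are laid down, had 4658, 5521 and 2691 CPM in treated 1, 2 and 3, against 8124, 1040 and 6742 CPM in untreated 1, 2 and 3. *Fn1* lay below untreated 1 and 3 in all treated tumours and above untreated 2, and its log2 fold change was -0.31 ± 0.68, or -0.80 ± 0.29 without untreated 2.

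In 11 of the 44 tested genes the treated and untreated ranges were separate. *Col24a1*, *Col5a3*, *Loxl2*, *P4ha3*, *Pcolce2* and *Plod3* lay higher in each treated tumour (10.6% of all tested genes), and *Col3a1*, *Col5a2*, *Col8a1*, *Loxl3* and *P4ha1* lower (10.2%). Members thus stood near the background, at 13.6% and 11.4%. With untreated 2 left out, 6 lay higher and 13 lower, against 19.8% and 19.9% of all tested genes. Treated 3 was the highest library for 15 of the 44 and untreated 1 for another 15, against 18.6% and 17.5% of all tested genes. The first 15 included both type I chains, *Col4a1*, *Col4a2*, *Col6a3*, *Col15a1*, *Col18a1*, *Lox*, *Loxl2* and *P4ha2*. Treated 3 also held the most skeletal muscle RNA, with a summed marker level of 3.67 to 345.8 CPM in treated tumours, the highest in treated 3, against 16.04 to 77.6 CPM in untreated ones, and its part in these values was not tested. The second 15 included *Col3a1*, *Col5a1*, *Col6a1*, *Col6a2*, *Col7a1*, *Fn1*, *Sparc*, *Serpinh1*, *Plod1* and *Loxl1*.

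Other genes of the collagen pathway lay in both directions, and edgeR called none of them (adjusted p 0.592 or above). Of 17 further folding and modifying genes 8 lay higher and 9 lower, 1 of them at an unadjusted p under 0.05, where 3.32% of all tested genes lay higher and 4.85% lower. This was *Creb3l1*, a transcription factor of collagen secretion, with 6.78, 11.8 and 14.4 CPM in treated tumours, against 3.32, 0.223 and 3.67 CPM in untreated ones. *Fkbp14*, a prolyl isomerase, followed by p with 11.4, 13.4 and 9.18 CPM in treated tumours, against 15.4, 34.95 and 13.8 CPM in untreated ones. Of 4 tested procollagen proteinases 3 lay higher, led by *Adamts2*, which removes the amino-terminal propeptide, with 26.2, 53.0 and 75.1 CPM in treated tumours against 19.3, 6.23 and 23.5 CPM in untreated ones. The next by p was *Tll1*, a tolloid proteinase, with 1.25 to 2.11 CPM in treated and 0.445 to 1.96 CPM in untreated tumours. Of 9 collagen-degrading genes 5 lay higher and 4 lower. Of these the collagenase *Mmp13* (DESeq2 adjusted p 0.000476) had 71.2, 39.0 and 42.8 CPM in treated tumours, against 6.78, 14.9 and 12.1 CPM in untreated ones. DESeq2 called 0.136% of all tested genes higher in that fit. *Fap*, a surface protease of activated fibroblasts, had 11.8, 15.6 and 7.19 CPM in treated tumours, against 17.0, 28.3 and 15.1 CPM in untreated ones.

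Of 8 tested collagen receptors 3 lay higher and 5 lower, and 3 of the lower ones were at an unadjusted p under 0.05, against 4.85% of all tested genes. *Itga1*, a subunit of the type IV collagen receptor, had 26.2, 39.8 and 21.7 CPM in treated tumours, against 93.0, 54.3 and 44.2 CPM in untreated ones. *Itga10*, known from cartilage, had 103.4, 97.9 and 31.0 CPM in treated tumours, against 306.5, 135.8 and 152.2 CPM in untreated ones. Both lay lower in every treated tumour, as did 10.2% of all tested genes, and both were picked by their small p. Of 9 tested fibril-organising proteins 4 lay higher and 5 lower. At edgeR's unadjusted p under 0.05 were 1 of the higher and 3 of the lower, against 3.32% and 4.85% of all tested genes. The 3 lower were *Thbs2*, *Lum* and *Dcn*. *Tnc*, tenascin C of healing wounds, had 364.0, 222.9 and 357.8 CPM in treated tumours, against 84.2, 44.7 and 152.2 CPM in untreated ones. *Thbs2*, thrombospondin 2, had 548.5, 473.3 and 337.0 CPM in treated tumours, against 962.9, 1165 and 681.7 CPM in untreated ones. Neither pair of ranges met, where 10.6% of all tested genes lay separate and higher and 10.2% separate and lower. *Tnc* and *Thbs2* were picked by their small p, so their separate ranges add no support. edgeR's adjusted test called neither gene, with 6 libraries or without untreated 2. Without untreated 2 DESeq2 called *Tnc* (adjusted p 0.000187), *Creb3l1* (0.0215), *Adamts2* (0.0386) and *Mmp13* (5.50e-09) higher. In the same fit DESeq2 called *Thbs2* (adjusted p 0.0140), *Itga1* (0.0289) and the collagen uptake receptor *Mrc2* (0.0346) lower. *Mrc2* is named after its value was seen. This fit, added after seeing the data, called 0.81% of all tested genes higher and 1.19% lower.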

How the data were processed

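The authors deposited a table of raw counts for each tumour, as whole numbers by gene symbol. TopHat, with no version, and mm10 are named in the submitters' processing notes. A directional kit was used for the libraries, per the labels' protocols. How reads were counted, with which strand setting and annotation, is not given in the sources used here, so antisense and overlapping genes can share counts.

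With edgeR 4.0.16 (R 4.3.3) filterByExpr at a smallest count of 10 kept 12517 genes. Counts were scaled with TMM (factors 0.96 to 1.02) and compared with the quasi-likelihood test, 2-sided, with Benjamini-Hochberg adjustment over all tested genes and a threshold of 0.05. CPM use the total counts times the TMM factors, with no pseudocount. The SE is the log2 fold change divided by the root of F. Ratios of chains had 0.5 added to each count. Genes with few counts have wide counting error at these depths. Every pair of replicates differed by more than sampling noise (chi-square per gene 5.64 or more).

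GC content and length are those of the longest GENCODE M21 transcript (22148 symbols matched by name, 666 through a RefSeq synonym). Its coordinates are on GRCm38, the same assembly as mm10. Simulated counts with known changes were run through the fits. How many of these changes were recovered is not given here. Alternatives were DESeq2 1.42.0 (as a test and for size factors), upper-quartile factors, limma-voom with sample quality weights (limma 3.58.1), 2 other filters, leaving out each library, the replicate number as a block, and a loess correction for GC content and length (span 0.3). The fits that combine DESeq2 or the GC correction with leaving out untreated 2 were added after seeing the data. The members and lists were chosen with earlier results of these data known. Values in every library are given for the most abundant members of each class (4 fibrillar, 2 of each other), for partner chains and for members at an unadjusted p under 0.05 or without overlap, and for the 2 members of each pathway list with the smallest p. Members given by their values in every library beyond this rule were chosen after their values were seen.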

Additional observations from a re-analysis of the deposited data

How the results depend on the processing

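The count of genes called over all tested genes was 0 with edgeR, 46 with DESeq2 and 2 with limma-voom, and 0 to 4 when single libraries were left out, 4 of them without untreated 3. Without untreated 2 it was 257 with DESeq2 and 1 with the GC and length correction. Collagen genes called numbered 0 with edgeR, 1 with DESeq2 and 5 with DESeq2 without untreated 2. Those at an unadjusted p under 0.05 numbered 12, against 7 with a filter at a mean of 5 CPM and 4 to 17 when single libraries were left out, with 4 without treated 2 or treated 3 and 17 without untreated 3. The share of all tested genes at that p was 8.17%, against 8.46% with that filter, 2.47% without treated 3, 6.71% without treated 2, 13.2% without untreated 3 and 18.4% without untreated 2, where 16 members were. The median log2 fold change of the tested members was 0.26, and 0.05 without untreated 2, 0.61 without untreated 1 and 0.58 without untreated 3. It was 0.07 with limma-voom, 0.52 with the replicate block, 0.14 with the GC and length correction and 0.19 with both. With the replicate number as a block 0 genes were called and 11 members had an unadjusted p under 0.05 (7.9% of all tested genes), or 18 with the GC and length correction too (13.8%). The labels state no pairing, so the numbers were not taken as pairs. Deviations of same-numbered libraries from their group means had correlations of -0.18, -0.11 and 0.11. Untreated 2 weighs on the untreated group mean, so these correlations cannot decide on pairing. Under the replicate block *Col6a1* turned to 0.16 and *Sparc* to 0.012, and with the block and the GC correction *Col16a1* to -0.43 and *Col7a1* to -0.37. With the GC correction alone *Col6a2* turned to -0.041, *Col16a1* to -0.73, *Col23a1* to -0.14 and *Col7a1* to -0.36. With limma-voom *Col5a1* turned to -0.20, *Col6a2* to -0.35, *Col7a1* to -0.34 and *Serpinh1* to -0.11. Without untreated 2 DESeq2 gave -0.25 for *Col5a1*, -0.41 for *Col6a2*, -0.45 for *Col23a1*, -0.36 for *Col7a1* and -0.11 for *Serpinh1*, and the GC correction -0.15, -0.34, -0.37, -0.18 and -0.11. Leaving out single libraries moved the log2 fold change over -0.25 to 0.63 for *Col5a1*, -0.47 to 0.37 for *Col6a1*, -0.41 to 0.58 for *Col6a2*, -0.74 to 0.14 for *Col10a1*, -0.50 to 1.995 for *Col23a1*, -0.36 to 0.61 for *Col7a1*, -0.11 to 0.27 for *Serpinh1*, -0.21 to 0.14 for *Sparc* and -0.80 to 0.13 for *Fn1*. The cause of these turns was not tested. None of these genes passed the adjusted edgeR test in either sign. Genes with few counts, such as *Col24a1*, are limited by depth.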
